A study of Rattus norvegicus with 6 samples.

Results

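The phase II conjugation genes of the rat liver were the rows of the count table whose symbol belonged to the UDP-glucuronosyltransferases (Ugt1, Ugt2 or Ugt3), the cytosolic sulfotransferases (Sult) or the glutathione S-transferases (cytosolic and mitochondrial Gst with a class letter, and microsomal Mgst). The rule used names alone and no measured value, and it found 40 of the 30957 rows: 5 UGT, 10 SULT and 25 GST rows, with 38 different symbols because Gstm6l and Gsto2 each had 2 rows. Liver RNA was sequenced from 2 groups of 3 rats. In both groups the rats were female Sprague Dawley animals, bought at 3 weeks of age, whose own gut microbiota had been depleted with an antibiotic cocktail (a pseudo germ-free model) before a daily gavage of donor faecal microbiota for 14 days. The t-PBS rats received pooled microbiota from donors given phosphate-buffered saline (PBS), and the t-DHEA rats received pooled microbiota from donors given dehydroepiandrosterone (DHEA), the androgen precursor used to produce a rat model of polycystic ovary syndrome. Since the donor material was pooled, the 3 rats of a group are separate recipients of the same kind of pool, and no recipient liver without a transplant was analysed here. The comparison asks whether the hepatic conjugation genes differed between recipients of the 2 microbiota.

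Phase II enzymes attach a polar group to steroids, bilirubin, bile acids, drugs, plant compounds and microbial products such as phenols and indoles, which makes them easier to excrete in bile or urine. UGTs of the endoplasmic reticulum add glucuronic acid from UDP-glucuronate, SULTs of the cytosol add sulfate from the donor PAPS, and GSTs add glutathione to reactive electrophiles. Gut bacteria act on the products, since bacterial glucuronidases and sulfatases release the parent compound again and return it to the liver. The liver is the main site of all of these reactions, and several of the genes are known targets of the xenobiotic receptors and of the antioxidant factor Nrf2.

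The libraries held between 12348511 and 14316886 counts, and 12210 genes passed the filter on low counts. At an unadjusted p under 0.05 with a fold change above 1.2, 604 genes were called, which is 4.95% of those tested. The lower calls numbered 364, or 2.98%, and edgeR's quasi-likelihood test left 0 genes (0%) at an adjusted p under 0.05. Groups of livers that did not overlap in CPM (the counts of a gene relative to the effective library size) were found for 10.1% of tested genes. Hepatocyte markers were abundant in every liver, with 1 of 8 called (higher) and summed levels of 134760 to 147214 CPM in t-PBS and 137169 to 162855 CPM in t-DHEA livers. Markers of some other cells differed between the groups. Of the 4 tested of 5 mesothelial markers, 3 were called lower (sum 22.4 to 25.4 CPM against 1.57 to 11.0 CPM, with Wt1 and Lrrn4 at 0 in t-DHEA rat 2), and of the 5 tested of 6 bile duct markers, 2 were lower (18.5 to 23.1 against 8.98 to 16.8 CPM, Krt7 at 0 in t-DHEA rat 2). Of 4 tested red cell markers 3 were higher (176 to 275 against 296 to 582 CPM), and 1 of 5 smooth muscle and stellate markers was higher (63.4 to 83.0 against 81.6 to 98.3 CPM). None of 6 Kupffer and other myeloid markers was called (345 to 422 against 368 to 502 CPM), nor was the 1 tested of 4 intestinal epithelial markers (1.84 to 2.24 against 2.48 to 3.07 CPM). Of 15 clock genes, 4 were higher and 1 was lower (446 to 572 against 504 to 682 CPM). The part of these shifts in the results below was not tested, and in bulk liver fewer cells of a type and less RNA per cell cannot be told apart.

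By FPKM (the authors' values per transcript length and library size, which allow levels of different genes to be compared) the GST rows had the highest sum of the 3 classes. The summed GST level was 4141, 3899 and 4994 FPKM in t-PBS rats 1 to 3, and 3980, 4446 and 4822 FPKM in t-DHEA rats 1 to 3. The SULT rows summed to 1570, 1377 and 1758 FPKM in t-PBS and to 1841, 1595 and 1555 FPKM in t-DHEA livers, and the UGT rows to 619, 532 and 451 FPKM in t-PBS and to 406, 388 and 588 FPKM in t-DHEA livers. In each class the 2 groups overlapped. The order of the first 2 classes depends on the length scaling, since by counts the SULT rows (4497 to 7184 CPM over the 6 livers) stood above the GST rows (4012 to 5253 CPM) in each liver, and the long Sult2a1 row may hold several genes, which affects its FPKM.

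One gene dominated the SULTs and one the GSTs in every liver. Sult2a1, the hydroxysteroid sulfotransferase that sulfates DHEA and bile acids, held 66.2% to 80.2% of the SULT level over the 6 livers. Mgst1, a membrane-bound enzyme of the endoplasmic reticulum and outer mitochondrial membrane, held 46.5% to 58.9% of the GST level. By FPKM the UGTs had no such fixed leader, although Ugt2b15 led by count in all 6 livers. Ugt2b15 made up 52.8% and 48.8% of the UGT level in t-PBS rats 1 and 2 and 49.6% in t-DHEA rat 3. It made up 23.5% in t-PBS rat 3 and 25.3% and 23.9% in t-DHEA rats 1 and 2, where Ugt2b35 took the first place by FPKM. That order depends on the length scaling. The Ugt2b15 row spans 158766 bases, beside 37812 for Ugt2b35, and may hold more than 1 gene, which would affect its FPKM.

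**Figure D1:**
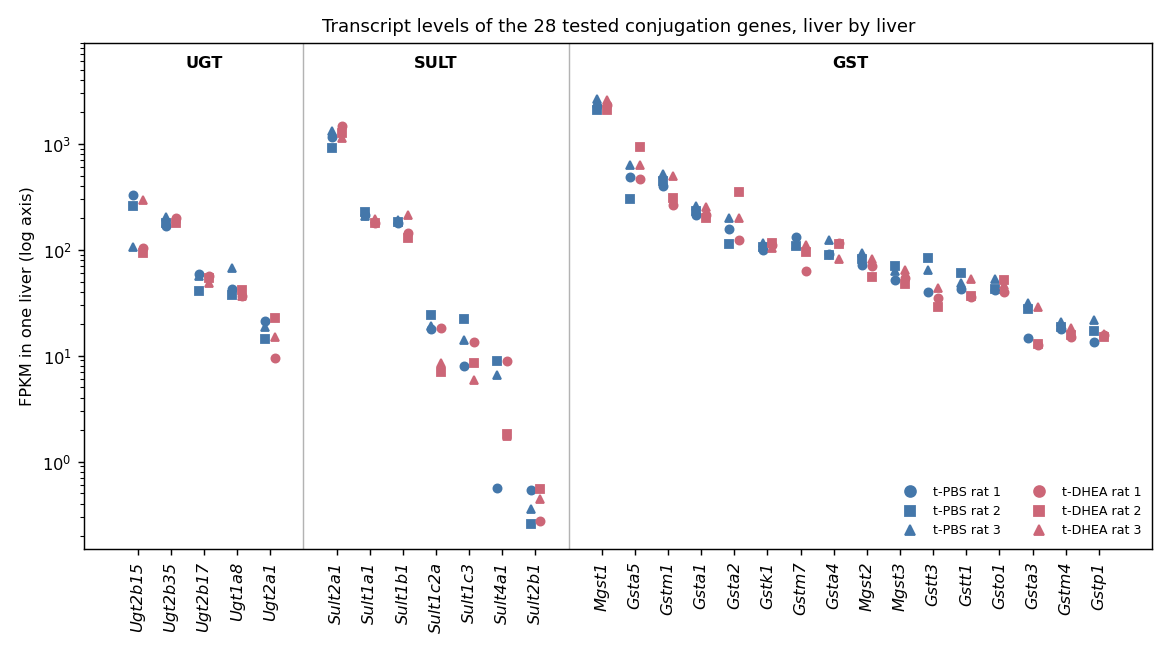
FPKM of each of the 28 tested conjugation genes in each of the 6 livers (log axis), ordered by mean level within the UGT, SULT and GST classes, with blue symbols for t-PBS and red for t-DHEA rats. Sult2a1 (mean 1210 FPKM) and Mgst1 (mean 2338 FPKM) stand above the rest of their classes, and the blue and red symbols overlap for all but Sult1a1.

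**Figure D2:**
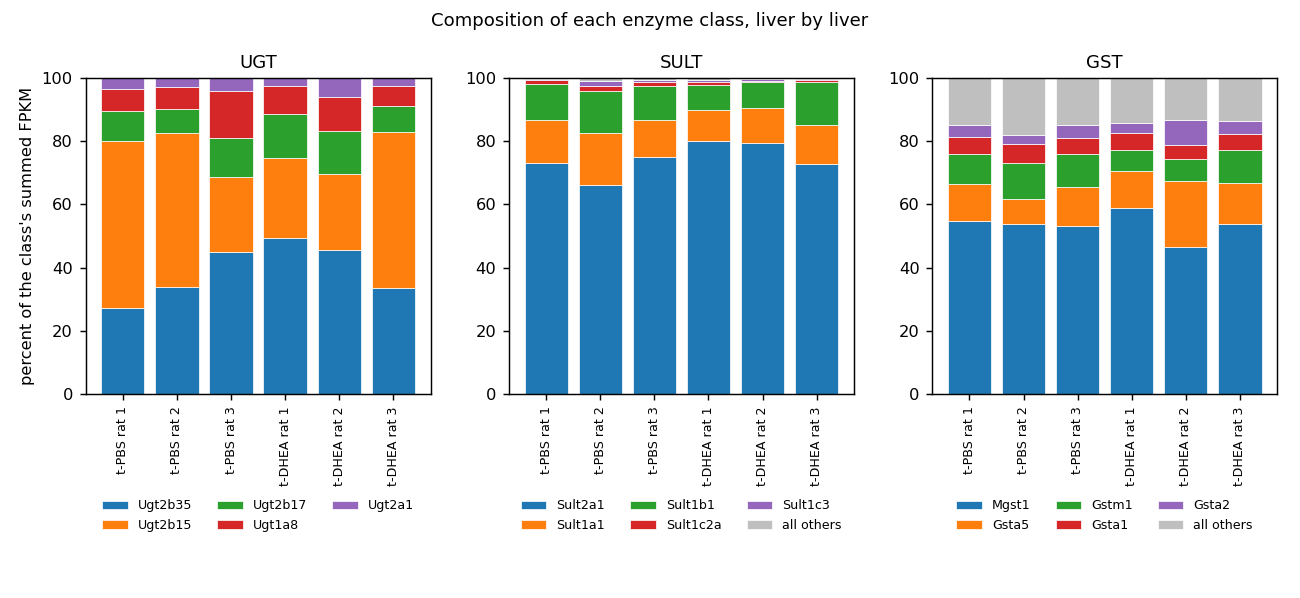
Percent of the summed FPKM of each class held by its 5 most abundant genes and, in grey, by all others, one bar a liver. The UGT bars are of 2 kinds, with Ugt2b15 at 48.8% or more in 3 livers and at 25.3% or less in the other 3, and both kinds occur in both groups.

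Of the 40 rows, 28 could be tested: all 5 UGTs, 7 of 10 SULTs and 16 of 25 GSTs. Called were 0 of 5 UGTs, 1 of 7 SULTs and 1 of 16 GSTs, in all 2 of 28 (7.14%, beside 4.95% of all genes). Both were lower in t-DHEA livers (2 of 28, beside 2.98% of all genes). No conjugation gene passed an adjusted p of 0.05, the lowest adjusted p among them in edgeR being 0.850. The median log2 fold change, t-DHEA over t-PBS, was -0.17 for the UGTs, -0.19 for the SULTs and -0.12 for the GSTs, beside 0.0013 for all tested genes. With 1 liver left out these medians ran from -0.32 to -0.00050 (UGT, nearest 0 without t-DHEA rat 1), from -0.23 to -0.083 (SULT, nearest 0 without t-DHEA rat 2) and from -0.22 to -0.032 (GST, nearest 0 without t-PBS rat 3). Below 0 were 3 of 5 UGTs, 5 of 7 SULTs and 10 of 16 GSTs, beside 49.6% of all tested genes. Between livers of a group, the class median had an SD of 0.168 (UGT), 0.242 (SULT) and 0.178 (GST). Each median log2 fold change thus lay within 1 such SD of 0.

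Gstt3, a theta class glutathione S-transferase (chromosome 20, positions 13817795 to 13825475, build Rnor_6.0), was the GST called lower. It stood at 71.8, 141.7 and 113.9 CPM in t-PBS rats 1 to 3 and at 64.2, 52.4 and 78.6 CPM in t-DHEA rats 1 to 3. The t-PBS livers were the higher ones except that t-PBS rat 1 lay below t-DHEA rat 3, so the groups overlapped by that 1 pair. The means were 109 ± 35.1 and 65.1 ± 13.1 CPM (SD, n = 3), and the log2 fold change was -0.75 (SE 0.24, edgeR quasi-likelihood p of 0.0121 before and 0.850 after adjustment). The call was lost without t-PBS rat 2, the liver with the most Gstt3 (log2 fold change -0.51). Gstt1, its neighbour and paralog, had 40.6, 55.5 and 46.2 CPM in t-PBS and 34.8, 34.9 and 51.1 CPM in t-DHEA livers (log2 fold change -0.23, SE 0.18) and was not called. Because reads of similar copies can be split between rows, the 2 theta rows were also summed. Their spans do not overlap, and whether they share reads was not tested. The sum stood at 112, 197 and 160 CPM in t-PBS and 99.0, 87.3 and 130 CPM in t-DHEA livers and had a log2 fold change of -0.57 (SE 0.21, edgeR quasi-likelihood p of 0.0245 before adjustment).

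Sult1c2a, a member of the Sult1c group of sulfotransferases that acts on phenolic and hydroxylated aromatic compounds (chromosome 9, positions 4152589 to 4168221), was the SULT called lower. It stood at 47.7, 62.2 and 50.9 CPM in t-PBS and at 49.6, 19.0 and 22.9 CPM in t-DHEA rats 1 to 3. The livers of t-DHEA rats 2 and 3 lay far below all t-PBS livers, whereas t-DHEA rat 1 lay among them. The means were 53.6 ± 7.62 and 30.5 ± 16.7 CPM (SD, n = 3), and the log2 fold change was -0.82 (SE 0.31, edgeR quasi-likelihood p of 0.0292 before and 0.957 after adjustment). Leaving out t-PBS rat 2 (-0.69) or either of t-DHEA rats 2 (-0.56) and 3 (-0.65) ended the call, as did DESeq2 (-0.81). Without t-DHEA rat 1 the log2 fold change was -1.36. Near copies lie beside it on chromosome 9. The best measured of them outside the naming rule, a row named LOC100910526, had 132, 89 and 160 counts in t-PBS and 153, 124 and 162 counts in t-DHEA livers. Its log2 fold change was 0.30 (SE 0.22), and the near copies LOC100910057 and RGD1565421 had 0.95 (SE 0.73) and -0.02 (SE 0.25). Summed over all 8 rows of the Sult1c cluster the log2 fold change was -0.53 (SE 0.23, edgeR quasi-likelihood p of 0.0488 before adjustment). The sum stood at 78.0, 111 and 98.1 CPM in t-PBS and at 93.9, 50.7 and 54.3 CPM in t-DHEA rats 1 to 3, so the groups overlapped.

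The promoters of both called genes are given because they share the direction of change. Each window is the 250 bases before the RefSeq start site in build GRCr8, read 5′ to 3′ on the strand of the gene, and capitals would mark a searched motif. Gstt3 lies on the plus strand (chr20:12874368-12874617) and Sult1c2a on the minus strand (chr9:7103203-7103452).
Gstt3: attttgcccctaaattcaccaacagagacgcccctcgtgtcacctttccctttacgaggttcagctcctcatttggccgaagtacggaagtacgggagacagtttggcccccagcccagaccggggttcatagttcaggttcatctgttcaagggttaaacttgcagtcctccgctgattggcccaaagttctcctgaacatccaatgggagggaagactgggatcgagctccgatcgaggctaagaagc
Sult1c2a: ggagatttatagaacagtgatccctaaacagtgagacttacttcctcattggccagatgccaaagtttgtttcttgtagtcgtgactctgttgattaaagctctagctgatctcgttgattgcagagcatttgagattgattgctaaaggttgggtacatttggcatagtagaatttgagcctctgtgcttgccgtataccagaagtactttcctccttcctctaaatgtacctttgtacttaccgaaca
Neither window holds, on either strand, any of the 5 motifs searched: the antioxidant response element TGACNNNGC, the dioxin response core GCGTG, the E-box CACGTG, the D-box TTATGTAA or the HNF1 motif GTTAAT. Over all 33469 promoter windows, each 300 bases long with 50 bases after the start site, these occur in 12.1%, 29.7%, 6.42%, 0.893% and 7.45%. Of the 38 conjugation gene symbols, 31 had a window, of which 6, 9, 2, 1 and 2 held the same motifs in that order. A symbol was counted if any of its windows held the motif, and Gsta3 for one had more than 1 window. The shares over all windows count single windows, so the units differ.

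**Figure D3:**
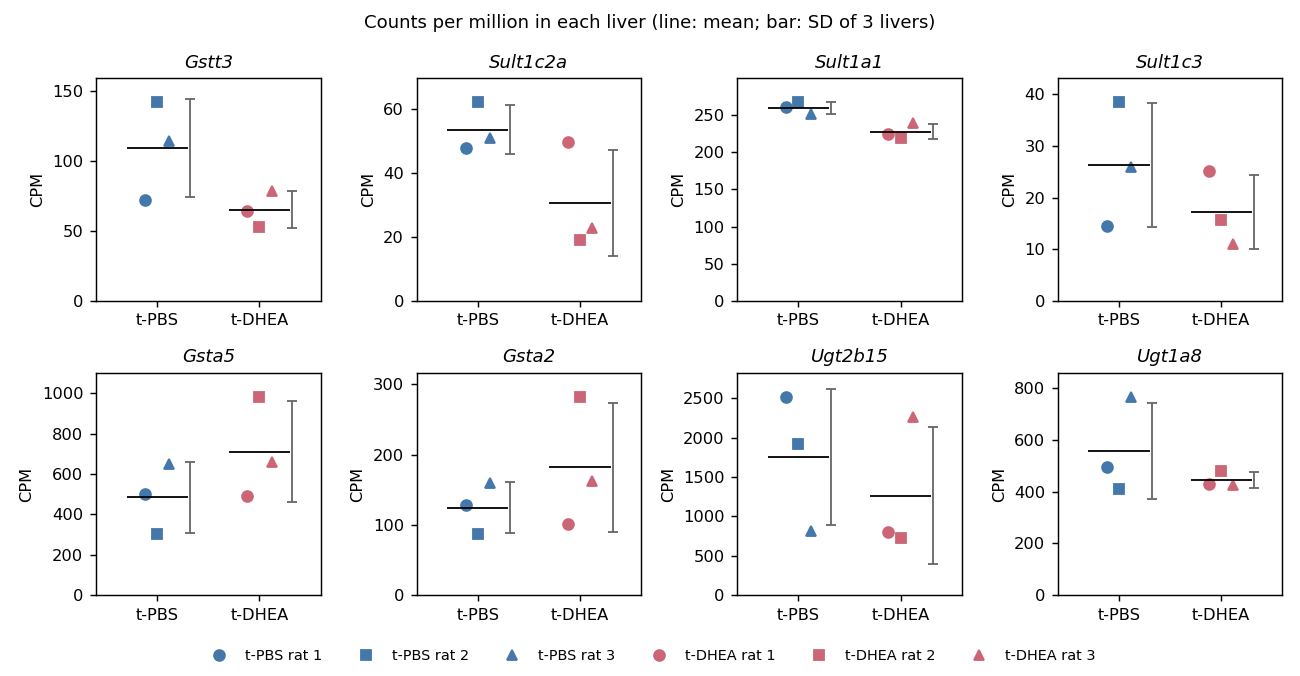
CPM of 8 conjugation genes in each liver, with t-PBS rats in blue and t-DHEA rats in red, a line at the group mean and a bar of 1 SD (n = 3). Gstt3 and Sult1c2a were called lower, Sult1a1 alone has groups that do not overlap (251.7 CPM or more against 239.7 CPM or less), and Ugt2b15 shows low and high livers in both groups.

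Among the SULTs that were not called, Sult1a1 had the tightest values. This phenol sulfotransferase (chromosome 1, positions 198100586 to 198104109) is one of the enzymes known to sulfate p-cresol, a product of gut bacteria. It stood at 261.7, 267.6 and 251.7 CPM in t-PBS and at 224.3, 219.9 and 239.7 CPM in t-DHEA livers. All 3 t-PBS livers lay above all 3 t-DHEA livers, which made it 1 of 28 tested genes without overlap, beside 10.1% of all genes. The log2 fold change was -0.19 (SE 0.09, 95% interval -0.40 to 0.01, edgeR quasi-likelihood p of 0.0628 before adjustment). An exact two-sided permutation test of the log2 CPM values gave p = 0.1, the smallest that 3 livers against 3 allow. Groups without overlap always give that value, so the test adds nothing to the lack of overlap. Its fold was below 1.2 in the mean CPM (1.14).

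Sult2a1 stood at 5119, 3885 and 5854 CPM in t-PBS and at 6677, 5696 and 5081 CPM in t-DHEA livers. The liver of t-PBS rat 2 was the lowest of the 6, and the other 5 overlapped. Its log2 fold change was 0.23 (SE 0.18, 95% interval -0.17 to 0.64). The row spans 527902 bases and is the only Sult2a row, while RefSeq lists 3 Sult2a protein-coding genes, so it may hold reads of more than 1 of them.

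Sult1b1, which sulfates thyroid hormone and small phenols, stood at 230.0, 223.7 and 242.9 CPM in t-PBS and at 186.5, 167.8 and 271.9 CPM in t-DHEA livers. The livers of t-DHEA rats 1 and 2 lay below all t-PBS livers and t-DHEA rat 3 above them (log2 fold change -0.15, SE 0.17). Sult1c3 stood at 14.5, 38.5 and 25.9 CPM in t-PBS and at 25.1, 15.6 and 11.0 CPM in t-DHEA livers, and 2 of 3 t-PBS livers lay above all t-DHEA livers while t-PBS rat 1 lay among them. Its log2 fold change was -0.61 (SE 0.37), without a call. Single livers decided the size: it was -0.98 when t-DHEA rat 1 was left out and -0.90 when t-PBS rat 1 was, both passing the call rule, and -0.23 when t-PBS rat 2 was. Sult4a1, a brain-type member without known substrates that is named here after its values were seen, varied most of all 28 genes. It had 1.26, 19.2 and 14.4 CPM in t-PBS and 20.1, 4.11 and 3.94 CPM in t-DHEA livers, a ratio of 16.0 between the highest and the lowest liver, and both groups held low and high livers. Sult2b1, the cholesterol sulfotransferase, was near the filter at 0.737 to 1.65 CPM.

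No UGT was called. Ugt2b15, which glucuronidates androgens, had the highest count of the 5 UGT rows in every liver, with 32.2% to 64.5% of the UGT counts, and was the most uneven of them. It stood at 2520, 1915 and 814 CPM in t-PBS and at 805, 720 and 2262 CPM in t-DHEA livers. The livers of t-PBS rats 1 and 2 and t-DHEA rat 3 were high, and the other 3 livers were low. The log2 fold change of -0.47 had an SE of 0.49 and a 95% interval of -1.59 to 0.65. Ugt2b17, also an androgen-glucuronidating enzyme, did not follow that split, with 302, 201 and 285 CPM in t-PBS and 294, 276 and 249 CPM in t-DHEA livers (log2 fold change 0.06, SE 0.16). The ratio of Ugt2b15 to Ugt2b17 counts was 8.35, 9.54 and 2.85 in t-PBS and 2.73, 2.61 and 9.10 in t-DHEA rats 1 to 3. The long Ugt2b15 row may hold reads of more than 1 Ugt2 gene, and which gene made the split was not tested.

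Ugt2b35 was even across the livers, at 449, 457 and 538 CPM in t-PBS and 540, 475 and 526 CPM in t-DHEA rats, with a log2 fold change of 0.10 and a 95% interval of -0.16 to 0.35. Ugt2a1, an olfactory-type enzyme whose row spans Ugt2b15 and Ugt2b35 on chromosome 14, had 139, 90.3 and 121 CPM in t-PBS and 62.8, 151 and 98.5 CPM in t-DHEA livers (log2 fold change -0.17, SE 0.28). Reads of Ugt2a1 and of the genes inside its span cannot be told apart where exons overlap. The 4 Ugt2 rows stand beside 11 RefSeq Ugt2 protein-coding genes, and summed with the 1 other row of the cluster, which had no counts, they gave a log2 fold change of -0.28 (SE 0.30).

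Ugt1a8 was the only Ugt1a row. It spans 141666 bases of chromosome 9 (positions 95161157 to 95302822), where RefSeq lists 8 Ugt1a protein-coding genes that share their last exons, so its count is best read as that of the locus, which includes the bilirubin and phenol enzymes. It stood at 497, 413 and 768 CPM in t-PBS and at 431, 481 and 427 CPM in t-DHEA livers. The liver of t-PBS rat 3 was far above the other 5, which overlapped, and the log2 fold change of -0.33 (SE 0.21, 95% interval -0.79 to 0.14) became -0.03 without it. When t-PBS rat 2, the lowest of the 6, was left out instead, it was -0.50 and passed the call rule.

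The alpha class GSTs were split. Gsta5 and Gsta2, both on chromosome 8, had the largest positive log2 fold changes of the 28 genes, and neither was called. Gsta5, which detoxifies aflatoxin epoxide in the rat, stood at 502, 300 and 650 CPM in t-PBS and at 491, 983 and 658 CPM in t-DHEA livers (log2 fold change 0.55, SE 0.31). Gsta2 stood at 127.6, 86.6 and 159.9 CPM in t-PBS and at 101.5, 282.4 and 161.9 CPM in t-DHEA livers (log2 fold change 0.55, SE 0.34). In both genes t-PBS rat 2 was the lowest and t-DHEA rat 2 the highest of the 6, and the other 4 livers overlapped. The ratio of Gsta5 to Gsta2 counts stayed between 3.47 and 4.83. Leaving out t-DHEA rat 2 brought the log2 fold changes to 0.25 and 0.08. Both genes passed the call rule when t-DHEA rat 1 was left out (0.76 and 0.83), and Gsta5 also when t-PBS rat 3 was (0.82).

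The promoters of this pair are printed because the 2 genes varied together over the livers. Gsta2 lies on the minus strand (chr8:88077093-88077342) and Gsta5 on the plus strand (chr8:87988104-87988353) of GRCr8, each window again being the 250 bases before the RefSeq start site, with motif matches in capitals.
Gsta2: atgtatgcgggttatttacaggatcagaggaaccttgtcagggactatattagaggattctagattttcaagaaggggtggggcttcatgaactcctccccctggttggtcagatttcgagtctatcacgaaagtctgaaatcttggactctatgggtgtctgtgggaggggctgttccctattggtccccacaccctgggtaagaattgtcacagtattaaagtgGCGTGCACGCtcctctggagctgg
Gsta5: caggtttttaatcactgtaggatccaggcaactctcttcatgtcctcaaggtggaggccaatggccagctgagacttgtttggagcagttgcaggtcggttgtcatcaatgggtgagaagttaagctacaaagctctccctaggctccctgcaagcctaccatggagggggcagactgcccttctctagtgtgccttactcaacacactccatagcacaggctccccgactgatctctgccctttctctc
The capitals in Gsta2 are 2 adjoining dioxin response cores, the first on the plus strand of the gene from base -24 and the second on the other strand from base -19. An antioxidant response element on the other strand begins at base 37 after the start site, outside the printed stretch. Gsta5 held none of the 5 motifs. The antioxidant response element known from rat Gsta2 lies farther upstream than these windows reach.

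Gsta1, at 329, 340 and 399 CPM in t-PBS and 334, 308 and 389 CPM in t-DHEA livers, overlapped between the groups (log2 fold change -0.05, 95% interval -0.33 to 0.23). Its neighbour LOC501110, an alpha class row outside the naming rule, had 228, 195 and 224 counts in t-PBS and 199, 276 and 279 counts in t-DHEA livers and passed the call rule as higher (log2 fold change 0.31, SE 0.13, edgeR quasi-likelihood p of 0.0430 before and 0.957 after adjustment). The alpha rows around Gsta1, 4 in all, summed to a log2 fold change of -0.06 (SE 0.14). The annotated span of Gsta1 contains Gsta3, which had 19.9 to 48.4 CPM, and Gsta4, the enzyme for the lipid aldehyde hydroxynonenal, had 90.4 to 134 CPM. Neither was called.

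Mu class GSTs conjugate many drugs and epoxides, and their best measured members had negative log2 fold changes that were not called. Gstm1 stood at 443, 480 and 575 CPM in t-PBS and at 304, 346 and 563 CPM in t-DHEA livers (log2 fold change -0.31, SE 0.22). The livers of t-DHEA rats 1 and 2 lay below all t-PBS livers and t-DHEA rat 3 among them. Gstm7 stood at 353, 278 and 292 CPM in t-PBS and at 170, 258 and 297 CPM in t-DHEA livers (log2 fold change -0.35, SE 0.19), where t-DHEA rat 1 was the lowest and rat 3 lay among the t-PBS livers. The 8 rows of the mu cluster summed gave -0.32 (SE 0.19).

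Mgst1, the most abundant GST, was even, at 2168, 1919 and 2514 CPM in t-PBS and 2271, 1986 and 2492 CPM in t-DHEA livers. The fitted difference was 0.03 on the log2 scale, with a 95% interval of -0.29 to 0.35. The sign of so small a value was not fixed, being negative in limma on the FPKM values (-0.0032). The other tested GSTs (Gstk1 of mitochondria and peroxisomes, Gsto1, Gstp1, Gstm4, Mgst2 and Mgst3) had log2 fold changes from -0.22 to 0.09. Gstp1, which in the rat marks preneoplastic and bile duct cells, stood at 10.4 to 16.8 CPM.

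**Figure D4:**
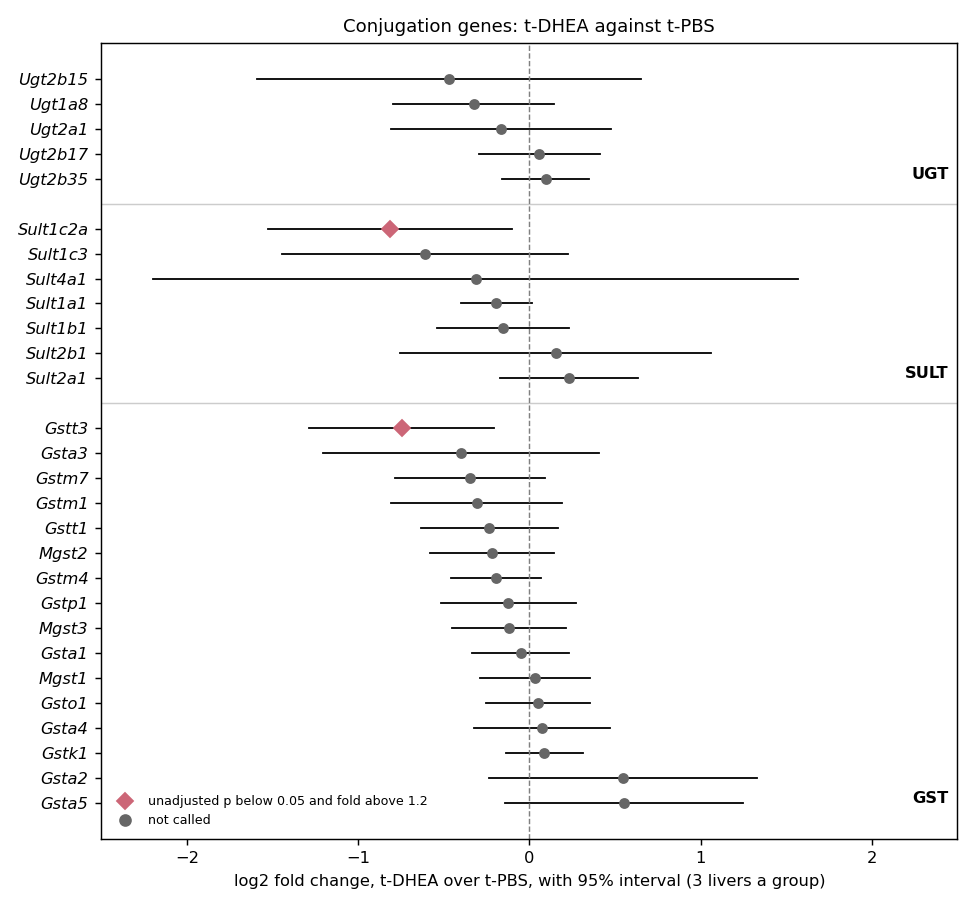
Log2 fold change, t-DHEA over t-PBS, of the 28 tested conjugation genes with its 95% interval (edgeR, 3 livers a group), by class, with called genes as red diamonds. Only the intervals of Sult1c2a (-1.53 to -0.10) and Gstt3 (-1.28 to -0.21) leave out 0.

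The GSTs shared their high and low livers within each group. Of the 16 tested GSTs, 12 were highest in t-PBS rat 3 among the t-PBS livers and 11 were highest in t-DHEA rat 3 among the t-DHEA livers, beside 33.6% and 31.2% of all tested genes. Conversely 10 of the 16 were lowest in t-PBS rat 1 and 8 in t-DHEA rat 1, beside 31.7% and 34.6% of all genes. These counts were made after the values were seen, and genes of one library are not independent. Of the 6 livers, leaving out t-DHEA rat 3 changed the number of calls most. Without it, 8 of 28 conjugation genes were called, all lower: Gstt3, Gstm1 (-0.62), Gstm4 (-0.28), Gstm7 (-0.52), Gsta3 (-0.89), Gstt1 (-0.44), Sult1b1 (-0.39) and Ugt2b15 (-1.20), beside 4.96% of all genes in the same fit. None of the 8 passed an adjusted p of 0.05, the lowest adjusted p in edgeR being 0.901. Leaving out any of the other 5 livers gave 1 to 5 called members, beside 4.17% to 5.89% of all genes, and the 5 came without t-DHEA rat 1, where 5.89% of all genes were called.

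**Figure D5:**
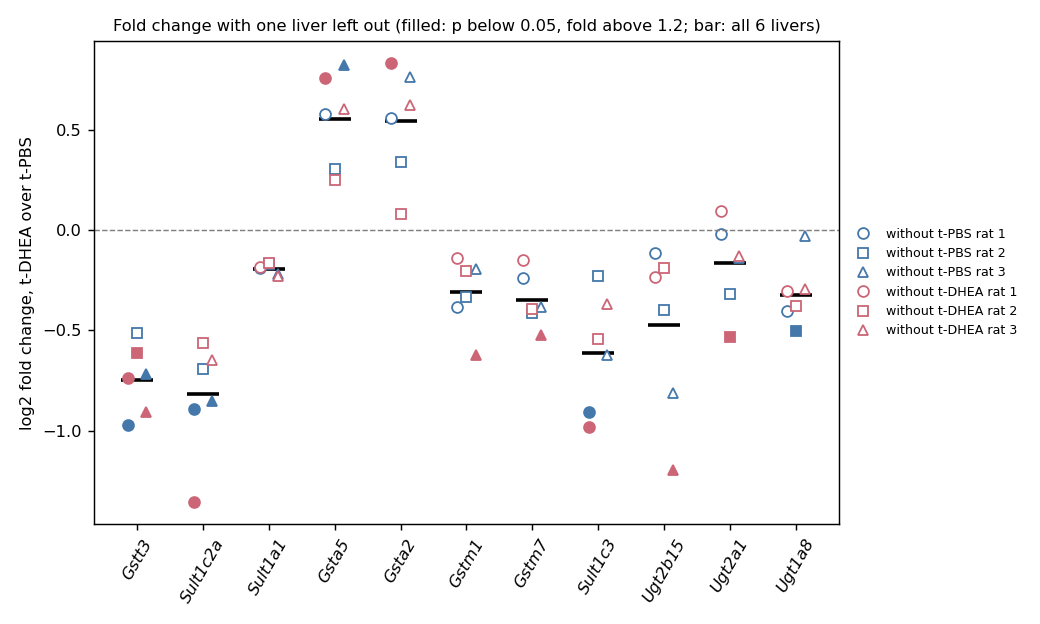
Log2 fold change, t-DHEA over t-PBS, of 11 conjugation genes with all 6 livers (bars) and with one liver left out (symbols, filled where the gene was called). Over these 6 fits Gstt3 stays between -0.97 and -0.51 and is called in 5, Sult1c2a is called in 3, Gsta5 in 2, and Gstm1 and Ugt2b15 in 1 each.

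The rows that were not tested were at or near 0. No count was found in any liver for Sult1d1, Sult6b1, Gstm5, Gstt2, Gstt4, 1 of 2 Gstm6l rows and 1 of 2 Gsto2 rows, which allows up to 3 counts a library, or 0.210 to 0.248 CPM. The other 5 (Sult5a1, Gstm3, Gstm6 and the remaining Gstm6l and Gsto2 rows) had 0 to 6 counts in each liver. Gstm3 was at 0 in every t-PBS liver and had 1, 1 and 2 counts in the t-DHEA rats, a difference not detectable at this depth. Several of these rows lie inside the span of an expressed gene, as Gstm3, Gstm6 and Gstm6l do in that of Gstm7.

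The genes that supply, remove and regulate conjugation were read from 6 lists. Of 63 genes 62 were in the table and 55 were tested, with 1 called higher and 0 lower (1.82%, beside 4.95% of all genes), and their median log2 fold change was 0.02. For UDP-glucuronate supply and release 0 of 5 were called, with Ugp2, which makes UDP-glucose, at 0.24 (SE 0.14) and Gusb, the lysosomal glucuronidase, at 0.15 (SE 0.10). For sulfate and PAPS 0 of 9 were called, with the sulfate transporter Slc26a2 at 0.26 (SE 0.26) and the PAPS carrier Slc35b3 at 0.20 (SE 0.18). For glutathione supply 0 of 9 were called, the list having the lowest median of the 6 (-0.17), with the glutathione-degrading Chac2 at -0.18 (SE 0.11) and Chac1 at 0.87 (SE 0.51). Chac1 rested on t-DHEA rat 3 (6.26 CPM, beside 1.47 to 2.11 CPM in the other 5) and was -0.017 without it. For conjugate export 0 of 6 were called, with Abcg2, a canalicular pump for sulfated compounds, at 0.53 (SE 0.30) and Abcc6 at 0.11 (SE 0.10). Among regulators 0 of 13 were called, with Keap1, the repressor of Nrf2, at 0.24 (SE 0.12) and Arnt, the partner of the aryl hydrocarbon receptor, at 0.30 (SE 0.17).

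Of 13 tested inducer targets, the quinone reductase Nqo1, which is induced through Nrf2 and the aryl hydrocarbon receptor, was the 1 called (7.69%, beside 4.95% of all genes). It stood at 37.0, 23.5 and 25.1 CPM in t-PBS and at 39.4, 41.9 and 52.7 CPM in t-DHEA livers. All t-DHEA livers lay above all t-PBS livers, though t-PBS rat 1 and t-DHEA rat 1 were close. Groups without overlap were found for 2 of the 13 tested inducer targets and for 3 of all 55 tested supply genes, beside 10.1% of all genes. The other inducer target was the Nrf2 target Txnrd1 (log2 fold change -0.19, SE 0.09, named after its values were seen). Its t-DHEA livers all lay below the t-PBS livers, and it was not called. The remaining gene was the regulator Keap1, not called, whose t-DHEA livers all lay above the t-PBS livers. The Nqo1 means were 28.5 ± 7.38 in t-PBS and 44.7 ± 7.07 CPM in t-DHEA livers (SD, n = 3). Its log2 fold change was 0.65 (SE 0.19, edgeR quasi-likelihood p of 0.00755 before and 0.815 after adjustment). Whichever liver was left out the call of Nqo1 stayed, with values from 0.51 to 0.88 over the 6 fits. Over the list 7 of the 13 had a log2 fold change below 0, and the list's median was -0.02. Genes known to respond to Nrf2 lay on both sides of 0. Ephx1 (-0.46, SE 0.31), Gclc (-0.24, SE 0.19), Gsr (-0.20, SE 0.13), Gclm (-0.17, SE 0.16) and Hmox1 (-0.14, SE 0.13) lay opposite to Nqo1 and were not called. These genes were also named after their values were seen and are not a full set. Gsta2, which has a known antioxidant response element, lay on the side of Nqo1 (0.55, SE 0.34). So did Gsta5 (0.55, SE 0.31), which varied with Gsta2 over the livers, and neither was called. Nrf2 activity was not tested.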

How the data were processed

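Liver RNA was extracted from snap-frozen tissue and sequenced as paired-end libraries. The submitters' processing notes name Rnor_6.0, Hisat2 2.0.4 and StringTie 1.3.0; the annotation release and strand setting are not given in the sources used here. The authors deposited whole-number counts per gene and FPKM values for the 6 livers, in one table. Counts divided by FPKM and library total were constant per gene (largest relative spread over livers 9.8e-06), so FPKM carries the same data. The lowest chi-square per degree of freedom between 2 libraries was 16.1, so no 2 livers agreed within sampling noise. The deposited counts were tested with edgeR 4.0.16 (TMM, filterByExpr, quasi-likelihood test over all 12210 genes that passed, Benjamini-Hochberg adjustment) on 3 livers a group. A gene was called at an unadjusted p below 0.05 with a fold change above 1.2, the rule the study used. Alternatives used limma 3.58.1 and DESeq2 1.42.0 in R 4.3.3, other filters and scalings, a replicate block and each liver left out, with cluster sums added later, on sight of the data. The scripts were tested on simulated data.

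The rule reads gene names only, but these families and the lists were proposed with earlier results of these data known. Of the 117 entries of the supply and marker lists, 114 were found in the table by name and 3 were not used here. Named were every called member, the 5 with the highest mean FPKM and the 3 with the lowest p in each class, tested members whose groups did not overlap, and in each supply list the called genes or else the 2 lowest p; Sult4a1, the members of leave-out fits and members given only by range were named after their values were seen. Promoters came from RefSeq (GRCr8), matched by symbol. Rats were caged in pairs and the cages of these recipients are not given in the sources used here, so some may be cagemates and p-values measure the spread between these rats. Counting intervals and floors cover counting error only.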

Additional observations from a re-analysis of the deposited data

How the results depend on the processing

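Over the alternatives, 0 conjugation genes passed an adjusted p of 0.05 in any fit, and the class medians kept their sign with one liver left out (UGT -0.32 to -0.00050, SULT -0.23 to -0.083, GST -0.22 to -0.032), moving by less than 1 SD of the per-liver class median (0.17, 0.24 and 0.18). Of 394 comparisons of a named gene's fold change with an alternative, 362 kept direction and call, 17 gained a call, 5 lost one and 10 changed sign. Most of the named genes were not called, so keeping the call mostly meant staying uncalled. Only Gstt3, Sult1c2a and Nqo1 could lose one. Gstt3 lost it in 1 of 15 alternatives, Sult1c2a in 4 of 15 and Nqo1 in 0 of 14. A fold change above 1.5 left 275 genes called. Genes with an adjusted p below 0.05, 0 in the quasi-likelihood test, numbered 28 in edgeR's likelihood-ratio test, 20 in DESeq2 and 0 to 1 with one liver left out; 604 genes had passed the call rule. In DESeq2 0 SULT genes were called, beside 2.65% of all genes. With one liver left out, 0 to 1 UGT, 0 to 2 SULT and 0 to 6 GST genes were called, beside 4.17% to 5.89% of all genes. The 6 GST calls came without t-DHEA rat 3. The sign changed in 5 genes: Mgst1 was -0.0032 in limma with either pseudocount, and with one liver left out Gsta1 ranged from -0.15 to 0.039, Mgst1 from -0.055 to 0.14, Ugt2a1 from -0.53 to 0.094, Ugt2b17 from -0.10 to 0.17 and Chac1 from -0.017 to 1.19. The cause of these changes was not tested.

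Over all tested genes, correlations of deviations between same-numbered livers were -0.058, -0.061 and -0.054, and 0 livers correlated best with their own number. Deviations from means of 3 livers cannot show whether same-numbered rats were handled together, and this was not tested. Of the 16 tested GSTs, 12 were highest in t-PBS rat 3 and 11 in t-DHEA rat 3 within their groups. A replicate block gave 2 called GST genes (Gstt3 and Gstm1). In all, 3 of 28 conjugation genes were called, beside 4.41% of all genes in the same fit. The sum of all Ugt1a rows was not run, since Ugt1a8 is the only one. With 3 livers a group, intervals of most members are wide, and differences inside them were not detectable.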
